A study of Homo sapiens with 8 samples.

Results

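The genes described here are 10 genes that make, break down, bind or carry out the signal of retinoic acid, out of 38592 genes in the deposited gene count table. They were taken by name and not by a cut on their values, though with earlier results of these data known. All 10 passed the filter on low counts. The members are the synthesis enzymes ALDH1A1, ALDH1A2 and ALDH1A3, the breakdown enzymes CYP26A1 and CYP26B1, the nuclear receptors RARA, RARB and RARG, and the cytoplasmic binding proteins CRABP1 and CRABP2.

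Bulk RNA was measured in islet-like cells grown from the H1 line of human embryonic stem cells, which is an established line. The cells were wild type (WT), or had lost 1 of 3 transcription factors of pancreatic endocrine development by knockout (KO): PDX1, PAX6 or ISL1. On day 11 they received either a vector for ISL1 and blue fluorescent protein (BFP), labelled ISL1 OE, or a vector for BFP alone, and all were harvested on day 18. Each of the 8 groups had 3 libraries except both WT groups and PDX1 KO with the ISL1 vector, which had 2 each, 21 in all. The labels do not say how many clones stood behind each knockout, how the ISL1 vector was driven or what share of cells took it up.

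Library totals ran from 40959467 to 66818614 counts. ISL1 RNA was at 285 and 484 CPM (counts scaled to library size) in WT BFP, 64.7 to 72 CPM in ISL1 KO BFP and 61.6 to 84 CPM in ISL1 KO ISL1 OE, so the libraries labelled ISL1 OE held no clear rise of the gene count. PAX6 RNA in PAX6 KO BFP (98.8 to 159 CPM) overlapped WT BFP (144 and 235 CPM), and PDX1 RNA in PDX1 KO BFP (93.1 to 105 CPM) overlapped WT BFP (74 and 95 CPM), so RNA of the edited gene does not check these labels. The lowest correlation between libraries of a group was 0.927 in PAX6 KO ISL1 OE and 0.9 in PDX1 KO ISL1 OE, against at least 0.982 in the other groups. PDX1 KO ISL1 OE holds 2 libraries, so that value alone does not say which of them stands apart. Replicate 4 had the lower TMM scaling factor, 0.707 beside 1.022 in replicate 2, and its 5 beta cell markers summed to 45369 CPM beside 687 CPM in replicate 2 and 478 to 692 CPM in PDX1 KO BFP. PAX6 KO ISL1 OE replicate 3 had a factor of 0.911 beside 1.119 and 1.15, and its 2 epsilon cell markers summed to 14704 CPM beside 2478 and 1964 CPM. These are called the 2 libraries that stood apart. Results are therefore given with all 21 libraries and with the 19 that remain without those 2. The summed level of 5 alpha cell markers was 34338 to 48581 CPM in WT BFP, 195 to 233 CPM in ISL1 KO BFP, 135 to 244 CPM in PAX6 KO BFP and 14045 to 18096 CPM in PDX1 KO BFP. The part of cell makeup in the results below was not tested. In bulk RNA, fewer cells of a type and less RNA per cell cannot be told apart. POU5F1 and NANOG, which mark pluripotent cells, were below 1 CPM in every library. LIN28A, the other of the 3 pluripotent markers used, was at 1 CPM or more in every library. The 3 summed to between 3.5 and 18.9 CPM.

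Retinoic acid is made from vitamin A. Retinol is first oxidised to retinal, and the ALDH1A enzymes turn retinal into retinoic acid. The acid enters the nucleus and binds a retinoic acid receptor, which sits on DNA beside a retinoid X receptor partner and switches genes on. CYP26 enzymes oxidise the acid and so end the signal. In the embryo the pathway helps to set up the pancreas from the foregut, and retinoic acid is a common ingredient of protocols that turn stem cells into pancreatic progenitors. RARB and CYP26A1 are textbook targets of the acid itself, through paired hexamers close to their start sites.

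Those paired hexamers are shown because RARB and CYP26A1 are the members that held such a repeat in the windows searched here. Sequences come from RefSeq promoter windows of 300 bases (GRCh38.p14), which covered all 10 members with 17 windows, several genes having more than 1 start. The search on both strands was for direct repeats of the hexamer AGGTCA or of its variants, which were AGTTCA in one form, GGGTCA as another form and GGTTCA as the last, in any pairing and with 5, 2 or 1 bases between them. The hexamers are in capitals. The RARB stretch is chr3:25428013-25428262 on the + strand and ends just before the start site at 25428263, within the RARB gene (chr3:25174332-25597932) but in no annotated exon. The CYP26A1 stretch is chr10:93073797-93073826 on the + strand, 30 bases that lie within an annotated exon of another CYP26A1 transcript.
RARB: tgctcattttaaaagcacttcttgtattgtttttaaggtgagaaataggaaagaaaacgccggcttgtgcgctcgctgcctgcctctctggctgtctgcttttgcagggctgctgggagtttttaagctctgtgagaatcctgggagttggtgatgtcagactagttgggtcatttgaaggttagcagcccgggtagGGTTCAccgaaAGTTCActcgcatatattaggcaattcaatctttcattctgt
CYP26A1: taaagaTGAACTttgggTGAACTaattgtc

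In RARB the repeat with a spacer of 5 bases lies 53 bases before the start, on the strand of the gene. In CYP26A1 it lies 90 bases before the RefSeq start at 93073893 and reads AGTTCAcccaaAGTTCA on the opposite strand. Of 35116 windows in the table, 31 (0.0883%) held a repeat with a spacer of 5 bases, among them 1 of RARB and 1 of CYP26A1. No member window held a repeat with a spacer of 2 or 1 bases, which 14 (0.0399%) and 46 (0.131%) of all windows did. The single hexamer AGGTCA, found in 13.8% of all windows, lay in 1 window of RARA and in another of RARB. A match describes these letters only, sites outside the windows were not searched, and binding was not measured here.

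Per length, ALDH1A1 was by far the most abundant member and ALDH1A3 the least. In TPM, which also corrects for transcript length, ALDH1A1 ran from 280 to 981 with a median of 459 over the 21 libraries. CYP26A1 had a median of 53.6 TPM, CRABP2 18.2, RARA 14.9, RARB 14.8, CYP26B1 12.4, CRABP1 3.32, RARG 2.14, ALDH1A2 1.21 and ALDH1A3 0.551 TPM. ALDH1A1 thus held between 99% and 99.9% of the summed TPM of the 3 synthesis enzymes in each library. ALDH1A2 and ALDH1A3 rested on few counts in the lowest libraries (8 and 4 counts), as did CRABP1 (11 counts).

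**Figure D1:**
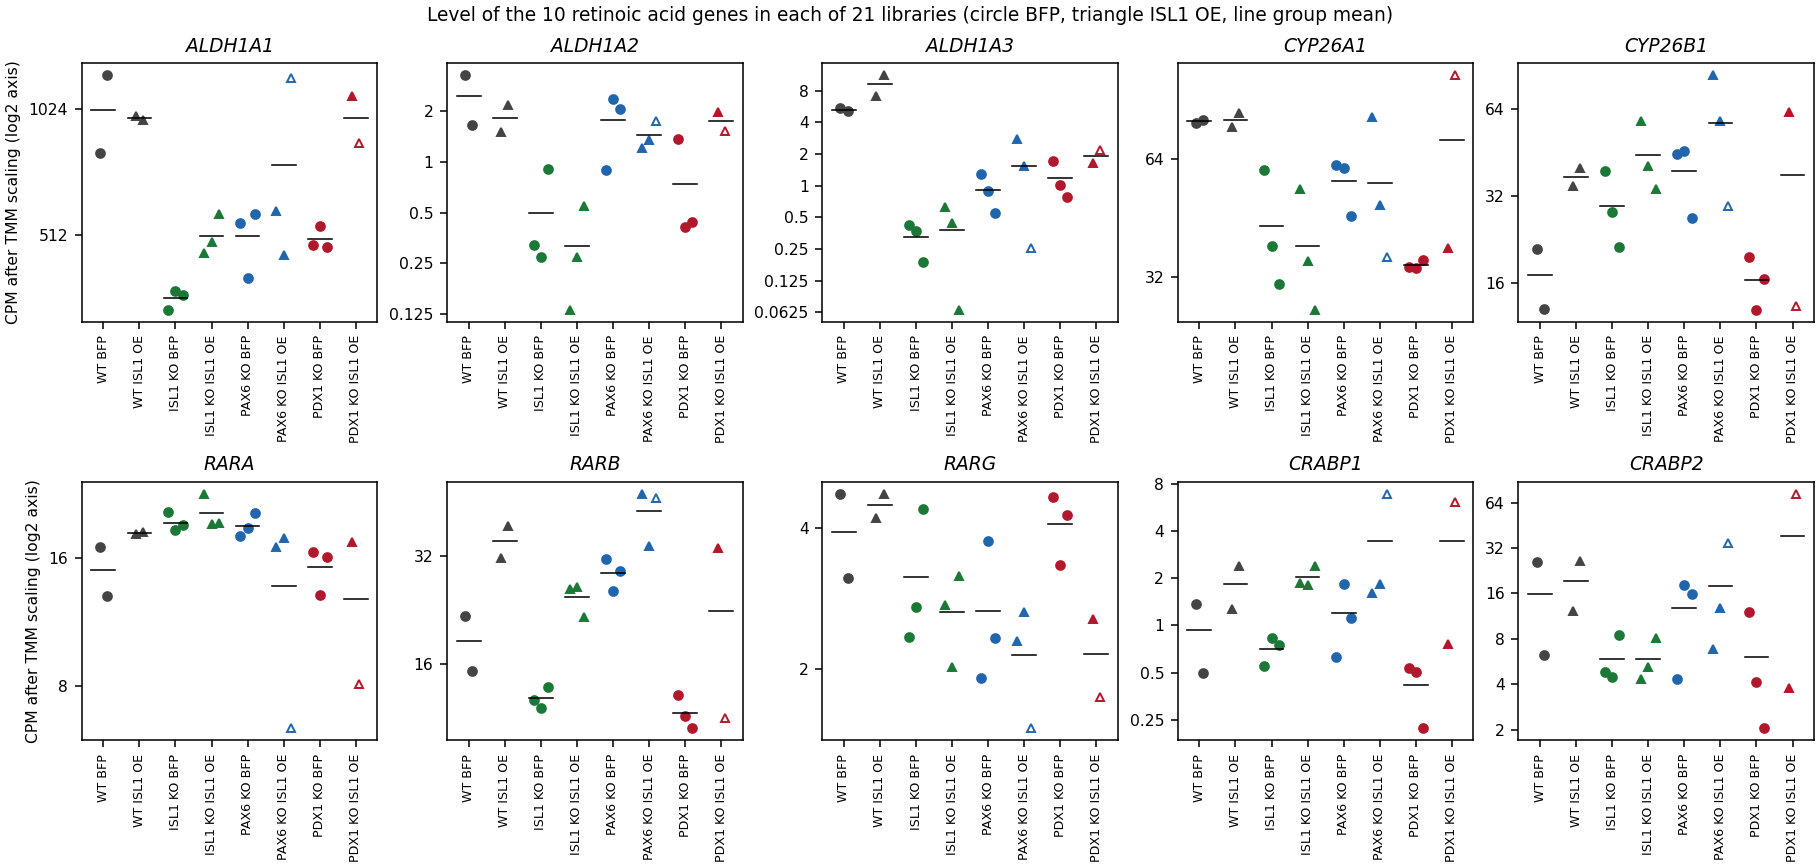
Level of each member in each of the 21 libraries, in CPM after TMM scaling on a log2 axis. Each point is 1 library, the line is the group mean and open symbols are the 2 libraries that stood apart. ALDH1A3 is highest in the WT groups, and RARB is higher in 9 of 10 ISL1 OE libraries than in every BFP library of the same genotype.

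The first question is how the retinoic acid genes stood in each knockout against WT under the control vector. The mean level of each synthesis enzyme was below WT in all 3 knockouts, and in ISL1 KO ALDH1A1, ALDH1A2 and ALDH1A3 all fell. In PAX6 KO, ALDH1A3 fell, and in PDX1 KO, ALDH1A1 fell. The 3 comparisons share the same 2 WT BFP libraries, so their directions are not independent of each other. Of the 10 members, 3 were called in ISL1 KO against 6.53% of all genes tested, 1 in PAX6 KO against 6.65%, and 1 in PDX1 KO against 11.4%, at an adjusted p under 0.05. With library size alone in place of TMM, the calls for ALDH1A2 in ISL1 KO, ALDH1A3 in PAX6 KO and ALDH1A1 in PDX1 KO were lost. All 5 calls were downward, as were 4.48%, 4.25% and 6.84% of all genes. The median log2 fold change of the members was -0.71, -0.40 and -1.09 in ISL1 KO, PAX6 KO and PDX1 KO, beside 0.03, 0.00 and 0.02 over all genes tested. With 19 libraries the members called were 5 for ISL1 KO against 28.5% of all genes, 4 for PAX6 KO against 28.8%, and 5 for PDX1 KO against 33.3%.

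ALDH1A1 (chr9:72900662-73080442, − strand), the main retinal oxidising enzyme of these cells by RNA level, stood at 807 and 1239 CPM in WT BFP. It was at 339, 376 and 368 CPM in ISL1 KO BFP, 547, 403 and 575 CPM in PAX6 KO BFP, and 485, 539 and 479 CPM in PDX1 KO BFP. Every knockout library was thus below both WT libraries, and every ISL1 KO library was below every library of the other knockouts. The log2 fold change against WT BFP was -1.50 ± 0.31 (SE, adjusted p = 0.00716) in ISL1 KO and -1.03 ± 0.31 (adjusted p = 0.0385) in PDX1 KO. In PAX6 KO it was -1.01 ± 0.31 and missed the threshold (adjusted p = 0.058), but passed it with 19 libraries (adjusted p = 0.000379), with the replicate number as a block (adjusted p = 0.0263) and by DESeq2 (adjusted p = 0.0218). Without WT BFP replicate 3, which had the higher level, the ISL1 KO value was -1.17 (adjusted p = 0.141) and the PDX1 KO value -0.68 (adjusted p = 0.382). Leaving out any 1 of 12 libraries, WT BFP replicate 3 and every PDX1 KO BFP library among them, lost the PDX1 KO call.

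ALDH1A2 (chr15:57953424-58497866, − strand), the enzyme that supplies most retinoic acid in the early embryo, was near the bottom of the range. It stood at 3.26 and 1.65 CPM in WT BFP, 0.323, 0.273 and 0.904 CPM in ISL1 KO BFP, 0.891, 2.36 and 2.04 CPM in PAX6 KO BFP, and 1.36, 0.409 and 0.44 CPM in PDX1 KO BFP. ISL1 KO and PDX1 KO lay below WT, and PAX6 KO overlapped it. The fall in ISL1 KO was -2.29 ± 0.63 on the log2 scale (adjusted p = 0.0377), and the call was lost when any 1 of 8 libraries was left out, to an adjusted p of at most 0.33. They were both WT BFP and both WT ISL1 OE libraries, replicates 1 and 2 of ISL1 KO BFP, replicate 2 of ISL1 KO ISL1 OE and replicate 3 of PAX6 KO BFP. In PDX1 KO the value was -1.74 ± 0.62 (adjusted p = 0.0811, and 0.0319 with 19 libraries), and the block and DESeq2 changed that call (adjusted p = 0.045 and 0.0364). In PAX6 KO it was -0.48 ± 0.61 (adjusted p = 0.753). Mesenchyme also expresses this enzyme in the embryo, and the 7 mesenchyme markers summed to 1131 and 194 CPM in WT BFP, 114, 187 and 303 CPM in ISL1 KO BFP, 161, 824 and 806 CPM in PAX6 KO BFP, and 719, 85.6 and 76.9 CPM in PDX1 KO BFP. In each of these 4 groups the library highest in those markers was also the highest in ALDH1A2. Under the ISL1 vector that held in WT and ISL1 KO but not in PAX6 KO or PDX1 KO. The part of mesenchyme in the difference was not tested.

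ALDH1A3 (chr15:100877714-100916626, + strand) differed most. It stood at 5.42 and 5.11 CPM in WT BFP, at 0.42, 0.369 and 0.187 CPM in ISL1 KO BFP, at 1.3, 0.889 and 0.553 CPM in PAX6 KO BFP, and at 1.72, 1.02 and 0.78 CPM in PDX1 KO BFP. No knockout library reached the WT level. The log2 fold change was -4.01 ± 0.77 (adjusted p = 0.00462) in ISL1 KO and -2.53 ± 0.72 (adjusted p = 0.0449) in PAX6 KO, the lowest values among the 5 called with all libraries. The PAX6 KO call was lost with the lane set as a term (adjusted p = 0.0522) and when any 1 of 15 libraries was left out, each WT BFP and PAX6 KO BFP library among them. In PDX1 KO the value was -2.16 ± 0.72 and missed the threshold (adjusted p = 0.0612), but passed it with 19 libraries (adjusted p = 0.00353), with the block (adjusted p = 0.0119) and by DESeq2 (adjusted p = 0.0202). An antisense gene, AC015712.2, shares 1585 exon bases with ALDH1A3 and the libraries carry no strand, so reads of the pair cannot be told apart. Its mean count was 38.0 beside 115.1 for ALDH1A3.

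**Figure D2:**
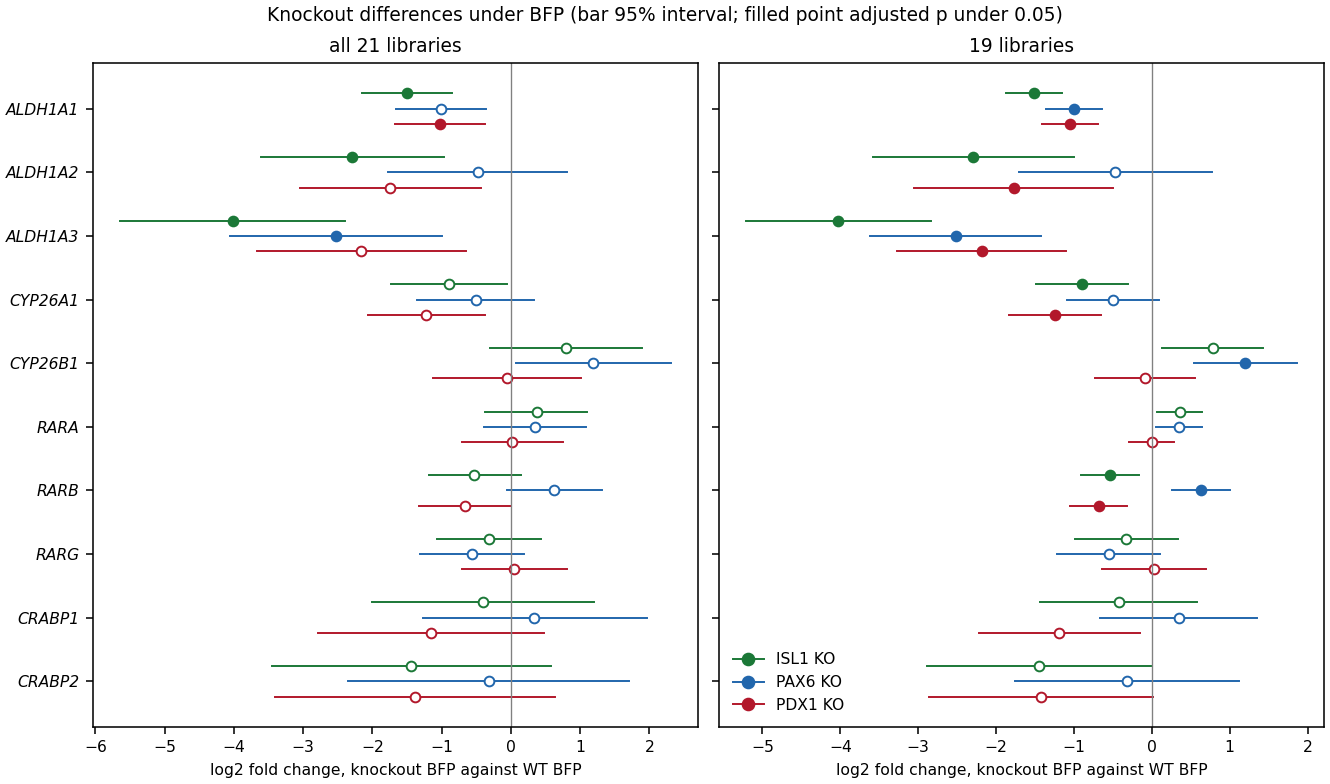
Log2 fold change of each member in ISL1 KO, PAX6 KO and PDX1 KO BFP libraries against WT BFP, with all 21 libraries (left) and with 19 (right). Bars are 95% intervals and filled points have an adjusted p under 0.05. The ALDH1A genes lie left of 0 in every knockout, while RARB lies left of 0 in ISL1 KO and PDX1 KO and right of 0 in PAX6 KO.

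Neither breakdown enzyme was called in a knockout by edgeR with all libraries, while DESeq2 called CYP26A1 lower in PDX1 KO. CYP26A1 (chr10:93073475-93077890, + strand), which clears retinoic acid and is itself induced by it, stood at 79.2 and 80.6 CPM in WT BFP. It was at 60.2, 38.5 and 30.7 CPM in ISL1 KO BFP, 62, 60.6 and 45.8 CPM in PAX6 KO BFP, and 34, 33.7 and 35.3 CPM in PDX1 KO BFP. By CPM the WT libraries were thus the highest, and the PDX1 KO libraries differed little from each other. By TPM PAX6 KO BFP replicates 1 and 2 (78 and 81.6) were above both WT BFP libraries (71.8 and 73.4). The PDX1 KO value was -1.22 ± 0.40 on the log2 scale and missed the threshold (adjusted p = 0.0579), but passed with 19 libraries (-1.24, adjusted p = 0.00255), with the block (adjusted p = 0.026) and by DESeq2 (adjusted p = 0.0257). In ISL1 KO it was -0.89 ± 0.40 (adjusted p = 0.213, and 0.0229 with 19 libraries), and in PAX6 KO -0.51 ± 0.40 (adjusted p = 0.546).

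CYP26B1 (chr2:72129238-72148038, − strand), the other clearing enzyme, was ordered differently. It stood at 21 and 13 CPM in WT BFP, 39, 28.2 and 21.3 CPM in ISL1 KO BFP, 44.5, 45.6 and 26.9 CPM in PAX6 KO BFP, and 19.6, 12.9 and 16.5 CPM in PDX1 KO BFP. All ISL1 KO and PAX6 KO libraries were above WT and PDX1 KO libraries overlapped WT. The ISL1 KO value was 0.79 ± 0.52 (adjusted p = 0.43, and 0.0694 with 19 libraries). The PAX6 KO value was 1.19 ± 0.53 (adjusted p = 0.205), and 1.20 ± 0.31 (adjusted p = 0.00822) with 19 libraries. Between knockouts, with no WT library involved, CYP26B1 was 1.26 ± 0.46 higher on the log2 scale in PAX6 KO than in PDX1 KO, which did not pass with all libraries (adjusted p = 0.165) and did with 19 (adjusted p = 0.00322).

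The proportion of the pair was read as well. CYP26A1 made up 92.8% ± 2.41 (SD, n = 2) of the summed TPM of both enzymes in WT BFP, 81.4% ± 0.715 (n = 3) in ISL1 KO BFP, 81.2% ± 1.96 (n = 3) in PAX6 KO BFP and 86.4% ± 2.21 (n = 3) in PDX1 KO BFP. The WT range of 91.1% to 94.5% did not overlap that of any knockout. CYP26A1 remained the larger share in every library.

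Among the receptors RARB differed most between genotypes, and with all libraries it passed the test in 2 of 3 comparisons between knockouts and in none against WT. RARB (chr3:25174332-25597932, + strand), the receptor that retinoic acid induces, stood at 21.8 and 15.3 CPM in WT BFP. It was at 12.7, 12.1 and 13.8 CPM in ISL1 KO BFP, 31.3, 25.5 and 29.1 CPM in PAX6 KO BFP, and 13.1, 11.5 and 10.6 CPM in PDX1 KO BFP. By CPM all PAX6 KO libraries were above WT, and all ISL1 KO and PDX1 KO libraries were below it. By TPM PAX6 KO (18.9, 15.9 and 16.1) was also above WT (10.3 and 6.89). By that measure ISL1 KO (6.78, 6.88 and 7.81) and PDX1 KO (7.39, 5.96 and 6.01) overlapped WT. Against WT no difference passed with all libraries. The log2 fold change of ISL1 KO was -0.53 ± 0.31 (adjusted p = 0.375), that of PAX6 KO 0.62 ± 0.32 (adjusted p = 0.294) and that of PDX1 KO -0.66 ± 0.31 (adjusted p = 0.207). With 19 libraries all 3 passed, at an adjusted p of 0.0293, 0.0132 and 0.00618.

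Between knockouts the RARB difference was larger. RARB was 1.15 ± 0.29 lower on the log2 scale in ISL1 KO than in PAX6 KO (log2 fold change -1.15, adjusted p = 0.038). That call was lost with the replicate block (adjusted p = 0.0805), with the lane set as a term (0.0505) and when any 1 of 10 libraries was left out, each ISL1 KO BFP library and PAX6 KO BFP replicates 1 and 3 among them. RARB was 1.29 ± 0.29 higher in PAX6 KO than in PDX1 KO (adjusted p = 0.0178), a call lost without replicate 1 or 3 of PAX6 KO BFP or replicate 2 or 3 of PDX1 KO BFP, to an adjusted p of at most 0.0969. RARB was the 1 member called in each of these comparisons, where 2.78% and 3.62% of all genes were. In ISL1 KO against PDX1 KO none of the 10 was called by edgeR with all libraries against 5.71% of all genes, and DESeq2 called 0. There 1 member had an unadjusted p under 0.05, beside 4292 of 22184 genes. That member was ALDH1A3 (-1.85 ± 0.70, adjusted p = 0.143, and 0.0289 with the replicate block). With 19 libraries the members called were 3 against 10.7% of all genes, 5 against 20.1% and 4 against 26.1%.

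RARA (chr17:40309192-40357643, + strand), the broadly expressed receptor, stood at 17 and 13 CPM in WT BFP and between 13.1 and 20.5 CPM in the knockout BFP libraries. The ISL1 KO and PAX6 KO libraries were all above WT and those of PDX1 KO overlapped it. Its differences from WT were at most 0.37 ± 0.35 on the log2 scale (adjusted p = 0.621, in ISL1 KO). RARA shares 556 exon bases with its antisense gene RARA-AS1, which had a mean count of 354.0 beside 988.9. RARG (chr12:53210567-53232980, − strand), the least abundant receptor, stood at 4.72 and 3.13 CPM in WT BFP and between 1.91 and 4.66 CPM in the knockout BFP libraries. Its knockout groups overlapped WT in all 3 comparisons, and the difference farthest from 0 was -0.56 ± 0.36 (adjusted p = 0.421, in PAX6 KO), with a 95% interval of -1.31 to 0.19.

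RARB also differed in its share of receptor RNA, which depends on RARA and RARG as well. Mean TPM of RARB and RARA was 8.58 and 9.68 in WT BFP and 7.15 and 15.1 in ISL1 KO BFP. The pair stood at 6.45 and 11.8 in PDX1 KO BFP and at 17 and 16.1 in PAX6 KO BFP. RARB made up 41.8% ± 0.35 (SD, n = 2) of the summed TPM of RARA, RARB and RARG in WT BFP. In PAX6 KO BFP that share was 48.3% ± 3.78 (n = 3). In ISL1 KO BFP the share was 29% ± 0.688 (n = 3) and in PDX1 KO BFP 30.5% ± 3.23 (n = 3). The ISL1 KO and PDX1 KO ranges (28.5% to 29.8%, and 27% to 33.4%) lay below those of WT (41.5% to 42%) and PAX6 KO (44.7% to 52.2%).

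Among transcripts found in GENCODE 29, RARB RNA came almost wholly from starts beside the printed repeat. Transcripts that begin between chr3:25428263 and 25428716 took 96.4% to 100% of the RARB transcript counts in each library, with a median of 100%. RARB-201, which begins at 25428311, took a median of 92.7% (80.2% to 99.3%). Transcripts found in GENCODE 29 covered 90.1% of the gene's counts, so the starts of the rest are not known here. RARA counts were spread over starts at 40309192 to 40309194 (median 13.2%), 40318281 to 40318285 (29%) and 40341388 to 40342399 (55.8%). RARG starts at 53232188 to 53232980 held a median of 74.7%, and those at 53220084 to 53220413 held 25.3%. Transcript counts are the authors' estimates, which share reads among overlapping transcripts.

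**Figure D3:**
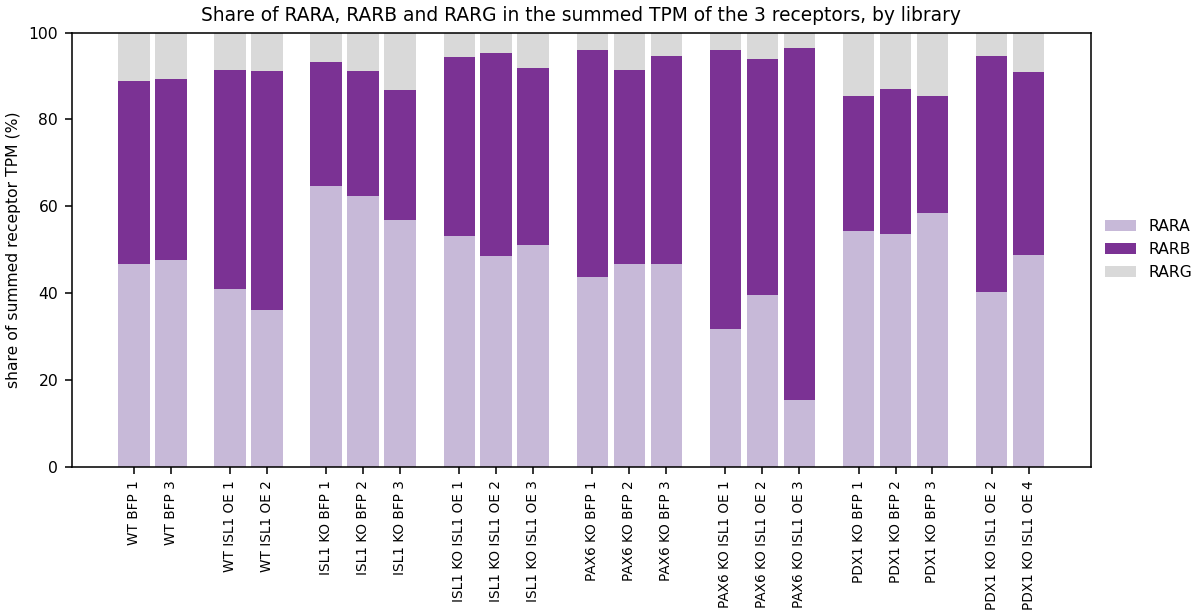
Share of RARA, RARB and RARG in the summed TPM of the 3 receptors, 1 bar per library. RARB takes 28.5% to 29.8% in ISL1 KO BFP and 44.7% to 52.2% in PAX6 KO BFP, and a larger share in the ISL1 OE libraries of each genotype.

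Neither binding protein was called in a knockout against WT by edgeR, with 21 or 19 libraries, or by DESeq2. CRABP1 (chr15:78340324-78348230, + strand), which passes retinoic acid to the clearing enzymes, stood at 1.37 and 0.494 CPM in WT BFP, 0.55, 0.834 and 0.746 CPM in ISL1 KO BFP, 0.631, 1.83 and 1.12 CPM in PAX6 KO BFP, and 0.532, 0.504 and 0.22 CPM in PDX1 KO BFP. Each knockout overlapped WT. Between knockouts CRABP1 was 1.50 ± 0.70 higher in PAX6 KO than in PDX1 KO on the log2 scale (adjusted p = 0.304, and 0.0213 with 19 libraries).

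CRABP2 (chr1:156699606-156705816, − strand), which carries retinoic acid to the receptors, varied as much within groups as between them. It stood at 25.7 and 6.29 CPM in WT BFP, 4.83, 4.45 and 8.44 CPM in ISL1 KO BFP, 4.36, 18.1 and 15.8 CPM in PAX6 KO BFP, and 12.1, 4.17 and 2.04 CPM in PDX1 KO BFP. The log2 fold change was -1.44 ± 0.95 in ISL1 KO (adjusted p = 0.436), with an interval of -3.45 to 0.58. In each of the 4 BFP groups the library highest in CRABP2 was the one highest in the mesenchyme marker sums given above. Under the ISL1 vector that held in WT, ISL1 KO and PDX1 KO but not in PAX6 KO. There replicate 3 had CRABP2 at 34.4 CPM with a marker sum of 151 CPM, and replicate 2 had 12.9 CPM with 815 CPM. The genes most like CRABP2 over all libraries, EMP2, SFRP2 and DCN, include DCN, 1 of the 7 mesenchyme markers. The part of mesenchyme in its spread was not tested.

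The next question is how the genes stood with the ISL1 vector against BFP within each genotype. The mean RARB level was higher with the ISL1 vector in all 4 genotypes. By CPM RARB was above every BFP library of its genotype in 9 of 10 libraries labelled ISL1 OE, all but PDX1 KO replicate 4. By TPM PAX6 KO replicate 3 (15.6) was not above its BFP libraries either (15.9 to 18.9). The share of all genes with such a count of libraries was not worked out, here or for the genes below. Single-genotype calls were few. In WT none of the 10 members was called by edgeR, where 8 genes (0.0361%) were, and DESeq2 called 0. There 1 member had an unadjusted p under 0.05, beside 844 of 22184 genes. In ISL1 KO none was called where 0.424% of all genes were, and DESeq2 called 0. There 2 had an unadjusted p under 0.05, beside 1758 of 22184 genes. In PAX6 KO none was called where 0.415% of all genes were, and DESeq2 called 0. There 1 had an unadjusted p under 0.05, beside 2379 of 22184 genes. In PDX1 KO 2 were called by edgeR where 14.4% of all genes were. DESeq2 called 5, and its share of all genes is not given here.

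Markers of several cell types also moved with the vector. The 6 enterochromaffin-like markers summed to 800 and 932 CPM in WT BFP and 542 and 515 CPM in WT ISL1 OE, and lay between 2157 and 2910 CPM in ISL1 KO BFP against 945 and 1223 CPM in ISL1 KO ISL1 OE. In PAX6 KO they lay between 1249 and 1965 CPM under BFP against 549 and 1120 CPM under the ISL1 vector, and in PDX1 KO between 3462 and 3977 CPM against 1217 and 1260 CPM. They were thus lower in every genotype, without overlap. The alpha markers were at 195 to 233 CPM in ISL1 KO BFP and higher in all 3 ISL1 KO ISL1 OE libraries, at 2654 and 5171 CPM in replicates 2 and 3, and at 11168 and 95445 CPM in the 2 PDX1 KO ISL1 OE libraries beside 14045 to 18096 CPM in PDX1 KO BFP. The 6 liver markers were at 5337 and 17004 CPM in PDX1 KO ISL1 OE beside 2730 to 3214 CPM in PDX1 KO BFP. In WT they were lower under the ISL1 vector, at 6019 and 7276 CPM beside 10485 and 11521 CPM under BFP. In ISL1 KO and PAX6 KO the liver sums under the vectors overlapped. The 5 delta markers, RBP4 among them, summed higher under the ISL1 vector in every genotype, without overlap. In WT their sums were 524 and 565 CPM beside 370 and 503 CPM under BFP. The part of these cells in the vector differences below was not tested.

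RARB stood at 31.5 and 38.7 CPM in WT ISL1 OE, at 25.9, 26.2 and 21.6 CPM in ISL1 KO ISL1 OE, at 47.6, 34.1 and 46.4 CPM in PAX6 KO ISL1 OE, and at 33.7 and 11.3 CPM in PDX1 KO ISL1 OE. All libraries but the last, which was the one that stood apart, were above the BFP values of their genotype. The log2 fold change in WT was 0.92 ± 0.35 (adjusted p = 0.983), in ISL1 KO 0.93 ± 0.29 (adjusted p = 0.226), in PAX6 KO 0.58 ± 0.28 (adjusted p = 0.481) and in PDX1 KO 0.94 ± 0.31 (adjusted p = 0.0535, and 0.017 by DESeq2). With 19 libraries RARB rose in WT (0.92 ± 0.19, adjusted p = 0.0201), in ISL1 KO (0.94 ± 0.16, adjusted p = 0.00173) and in PDX1 KO (1.55 ± 0.21, adjusted p = 0.000126, resting on 1 ISL1 OE library). In PAX6 KO it was 0.52 ± 0.17 and missed the threshold (adjusted p = 0.08). The background then was 1.69%, 5.92%, 11.2% and 6.02% of genes called in WT, ISL1 KO, PDX1 KO and PAX6 KO.

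CYP26B1 stood at 34.5 and 40 CPM in WT ISL1 OE, 58.2, 40.7 and 33.9 CPM in ISL1 KO ISL1 OE, 83.9, 58 and 29.6 CPM in PAX6 KO ISL1 OE, and 62.2 and 13.3 CPM in PDX1 KO ISL1 OE. It was above every BFP library of its genotype in 7 of 10 libraries. No genotype passed with all libraries, and in PDX1 KO the value turned on which library was kept. It was 1.21 ± 0.50 (adjusted p = 0.108) with both, 1.96 without replicate 4 (adjusted p = 0.0016 with 19 libraries) and -0.22 without replicate 2.

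CRABP1 stood at 1.27 and 2.41 CPM in WT ISL1 OE, 1.87, 1.81 and 2.4 CPM in ISL1 KO ISL1 OE, 1.62, 1.85 and 6.95 CPM in PAX6 KO ISL1 OE, and 0.764 and 6.12 CPM in PDX1 KO ISL1 OE. The 2 highest values belong to the libraries that stood apart. The rise in PDX1 KO was 3.01 ± 0.76 with all libraries (adjusted p = 0.0168) and 0.88 ± 0.60 with 19 (adjusted p = 0.381), so the call rested on PDX1 KO replicate 4. It was also lost without PDX1 KO BFP replicate 3 (2.72, adjusted p = 0.0746). In ISL1 KO, where no library stood apart, the groups did not overlap and the value was 1.51 ± 0.68 (adjusted p = 0.577, and 0.04 with 19 libraries).

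ALDH1A1 stood at 989 and 968 CPM in WT ISL1 OE, within the range of WT BFP. It was at 464, 493 and 574 CPM in ISL1 KO ISL1 OE, 586, 459 and 1215 CPM in PAX6 KO ISL1 OE, and 1104 and 852 CPM in PDX1 KO ISL1 OE. By CPM the ISL1 KO and PDX1 KO libraries were above all BFP libraries of their genotype. By TPM PDX1 KO replicate 4 was not, at 291 TPM beside 412, 433 and 414 TPM in PDX1 KO BFP. The rise in PDX1 KO was 0.96 ± 0.31 (adjusted p = 0.0455) and 1.16 ± 0.21 (adjusted p = 0.0016) with 19 libraries. The call with all libraries was lost with library size alone or no filter, and in a fit of only the groups compared. The lane set as a term lost it too (adjusted p = 0.079). So did leaving out any 1 of 15 libraries, each PDX1 KO library of either vector among them.

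The other members gave no call for the vector in any genotype by edgeR with all libraries, while DESeq2 called CYP26A1 and CRABP2 higher in PDX1 KO. CYP26A1 stood at 77.2 and 84 CPM in WT ISL1 OE, 53.7, 35.2 and 26.4 CPM in ISL1 KO ISL1 OE, 81.9, 48.8 and 36 CPM in PAX6 KO ISL1 OE, and 38 and 105 CPM in PDX1 KO ISL1 OE. In WT its log2 fold change was 0.01 ± 0.44, with an interval of -0.92 to 0.94. In PDX1 KO it was 1.06 ± 0.40 (adjusted p = 0.0805, 0.0442 with the block and 0.0351 by DESeq2), and 0.17 ± 0.35 with 19 libraries. ALDH1A3 stood at 7.2 and 11.3 CPM in WT ISL1 OE, above both WT BFP libraries (0.81 ± 0.78, adjusted p = 1), and between 0.0663 and 2.81 CPM in the knockout ISL1 OE libraries, below every WT library. ALDH1A2 ran from 0.133 to 2.15 CPM over the ISL1 OE libraries, RARA from 6.35 to 22.7 CPM, RARG from 1.49 to 4.74 CPM and CRABP2 from 3.8 to 73.5 CPM. The lowest RARA and RARG values and the highest CRABP2 value came from the 2 libraries that stood apart. CRABP2 in PDX1 KO was 2.66 ± 0.97 (adjusted p = 0.0735, and 0.0166 by DESeq2) with all libraries and -0.66 ± 0.92 with 19.

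Whether a vector difference itself differed between genotypes was tested directly. No member was called by edgeR with all libraries in any of 5 such tests, and DESeq2 called none of them either. The background was 0.00451% for ISL1 KO minus WT, 0% for PAX6 KO minus WT, 1.37% for PDX1 KO minus WT, 0.00451% for PAX6 KO minus ISL1 KO and 0.523% for PDX1 KO minus ISL1 KO. At an unadjusted p under 0.05 stood ALDH1A1 in PDX1 KO minus WT (1.03 ± 0.46, adjusted p = 0.272), beside 3731 of 22184 genes. In PDX1 KO minus ISL1 KO both ALDH1A2 (1.91 ± 0.86, adjusted p = 0.378) and CYP26A1 (1.23 ± 0.54, adjusted p = 0.369) did, beside 2791 of 22184 genes. For RARB the difference from the WT effect was 0.01 ± 0.45 for the ISL1 knockout, -0.34 ± 0.45 for the PAX6 knockout and 0.02 ± 0.47 for the PDX1 knockout. The 95% intervals were -0.93 to 0.96, -1.29 to 0.60 and -0.97 to 1.01, so differences as large as the RARB values themselves lie within them. With 19 libraries 1 member was called, ALDH1A1 in PDX1 KO minus WT (1.22 ± 0.28, adjusted p = 0.0249), where 3.28% of all genes were. The tests of ISL1 KO minus WT, PAX6 KO minus WT and PAX6 KO minus ISL1 KO then called no member by edgeR. They called 0.313%, 0.0565% and 0.0217% of all genes. At an unadjusted p under 0.05 they held 1, 0 and 0 members, beside 2183, 2366 and 1068 of 22990 genes. PDX1 KO minus ISL1 KO then rested on 1 PDX1 KO ISL1 OE library.

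Averaged over the 4 genotypes, a comparison added after the data were seen, 4 of 10 members rose with the ISL1 vector and none fell, where 11.2% of all genes were called and 5.56% rose. RARB rose by 0.84 ± 0.15 on the log2 scale (adjusted p = 0.00222), CRABP1 by 1.76 ± 0.37 (adjusted p = 0.00568), CYP26B1 by 0.87 ± 0.25 (adjusted p = 0.0309) and ALDH1A1 by 0.49 ± 0.15 (adjusted p = 0.0459). With 19 libraries the same 4 genes were called, at 0.98 ± 0.09, 0.98 ± 0.25, 1.14 ± 0.16 and 0.42 ± 0.09, where 28% of all genes were. ALDH1A1 was lost with the lane set as a term (adjusted p = 0.127) and when any 1 of 14 libraries was left out, and CYP26B1 when any 1 of 7 was. RARB and CRABP1 passed with each of the 21 libraries left out in turn. CYP26A1, the other member with a printed repeat, had 0.22 ± 0.20 (adjusted p = 0.489), RARA -0.09 ± 0.17, RARG -0.33 ± 0.18, ALDH1A2 -0.04 ± 0.30, ALDH1A3 0.62 ± 0.36 and CRABP2 0.85 ± 0.47.

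**Figure D4:**
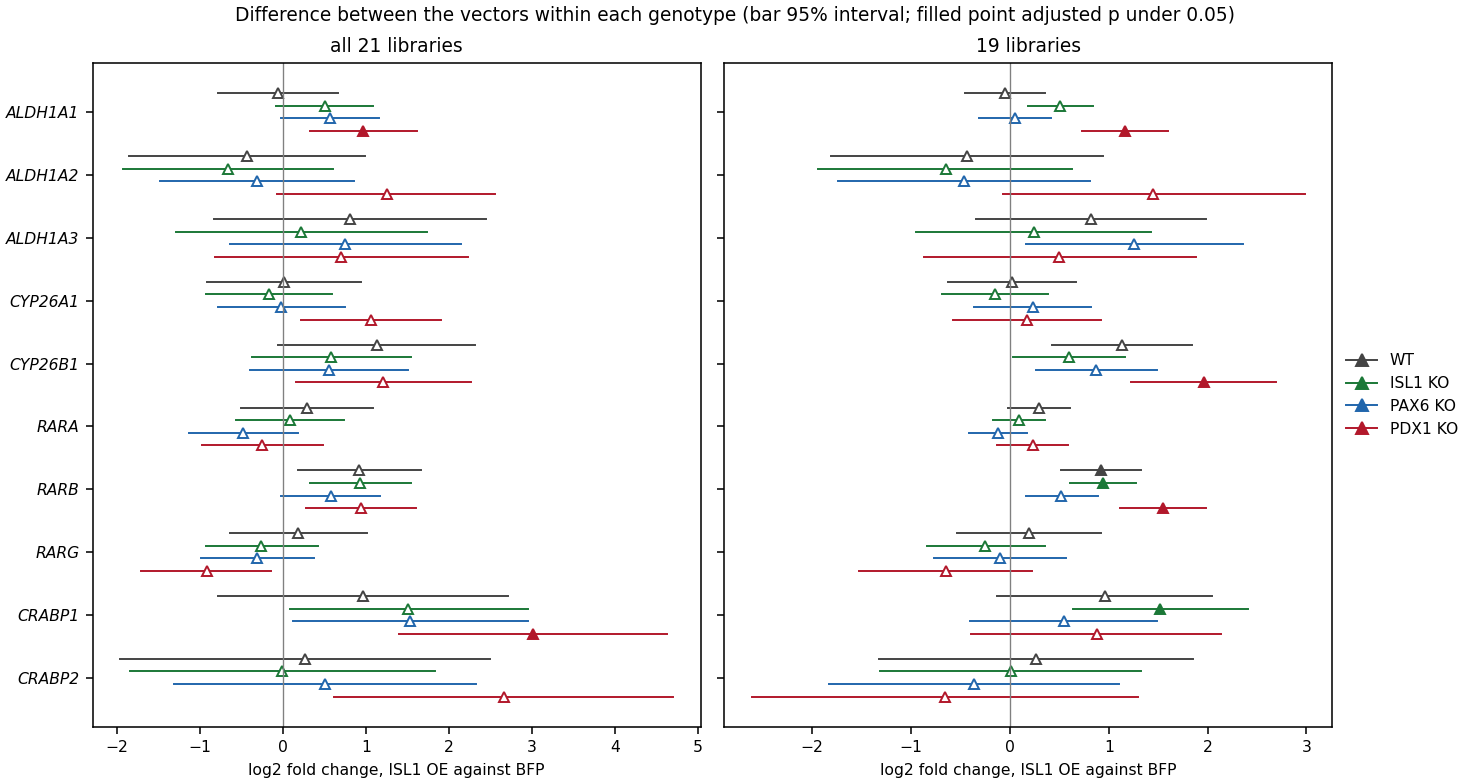
Log2 fold change of each member between ISL1 OE and BFP libraries of the same genotype, with all 21 libraries (left) and with 19 (right). Bars are 95% intervals and filled points have an adjusted p under 0.05. RARB lies right of 0 in all 4 genotypes in both panels, and CRABP1 and CRABP2 in PDX1 KO move to the left in the right panel.

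By share, RARB under the ISL1 vector made up 52.7% ± 3.11 (SD, n = 2) of receptor TPM in WT, 42.9% ± 3.24 (n = 3) in ISL1 KO, 66.6% ± 13.6 (n = 3) in PAX6 KO, and 42.2% and 54.5% in the 2 PDX1 KO libraries. In each genotype these ranges lay above those under BFP. In the 2 libraries that stood apart the higher share did not come with more RARB in TPM. PAX6 KO replicate 3 (81.1%) held RARB at 15.6 and RARA at 2.94 TPM, beside 15.9 to 18.9 and 15.7 to 16.6 TPM under BFP. PDX1 KO replicate 4 (42.2%) held them at 2.45 and 2.83 TPM, beside 5.96 to 7.39 and 9.57 to 13 TPM under BFP. Under the same vector CYP26A1 made up 86.1% ± 0.2 (n = 2) of the breakdown pair in WT, 72.4% ± 1.9 (n = 3) in ISL1 KO and 74.5% ± 2.92 (n = 3) in PAX6 KO, below the BFP range of each. In PDX1 KO the share was 65.6% in one library and 95.9% in the other.

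The order of the groups by mean CPM differed between members. For RARB it ran from PAX6 KO ISL1 OE (42.7) and WT ISL1 OE (35.1) through PAX6 KO BFP (28.6), ISL1 KO ISL1 OE (24.6), PDX1 KO ISL1 OE (22.5) and WT BFP (18.6) to ISL1 KO BFP (12.9) and PDX1 KO BFP (11.7). Neighbours overlapped except WT ISL1 OE with PAX6 KO BFP, and WT BFP with ISL1 KO BFP. For ALDH1A3 WT ISL1 OE (9.24) and WT BFP (5.26) led and were followed by PDX1 KO ISL1 OE (1.92), and none of those neighbours overlapped. From there PAX6 KO ISL1 OE (1.53), PDX1 KO BFP (1.18), PAX6 KO BFP (0.914), ISL1 KO ISL1 OE (0.378) and ISL1 KO BFP (0.325) each overlapped the next. For ALDH1A1 the lowest group, ISL1 KO BFP (361), was the one that did not overlap its neighbour, PDX1 KO BFP (501). For CYP26B1 the break lay between ISL1 KO BFP (29.5) and WT BFP (17). All neighbours overlapped for CYP26A1, ALDH1A2, RARG and CRABP2.

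Other genes that handle retinoids were read from a list of 35, of which 33 were tested. ADH7 and CYP26C1 did not pass the filter. The shares of all genes called were 6.53% in the ISL1, 6.65% in the PAX6 and 11.4% in the PDX1 knockout. In ISL1 KO against WT, 1 rose and 3 fell. The vitamin A carrier RBP4 (log2 fold change -2.81 ± 0.69, adjusted p = 0.0211) fell, as did its partner in plasma TTR (-3.06 ± 0.67, adjusted p = 0.011) and the retinol uptake receptor STRA6 (-1.82 ± 0.46, adjusted p = 0.0253), while the receptor partner RXRB rose by 1.08 ± 0.31 (adjusted p = 0.0453). In PAX6 KO, 2 rose and 3 fell: LRAT, which stores retinol as esters, rose by 1.10 ± 0.29 (adjusted p = 0.0315) and RXRB by 1.14 ± 0.31 (adjusted p = 0.0346), and RBP4 (-2.61), the intestinal carrier RBP2 (-2.80) and RDH10 (-1.14), which makes retinal for the ALDH1A enzymes, fell. In PDX1 KO none rose and 6 fell, RBP2 by 4.02, RBP4 by 3.69, RDH13 by 1.10, the retinal reductase DHRS3 by 0.92, RDH5 by 0.90 and LRAT by 0.88. The list's median log2 fold change was -0.13 for ISL1 KO, -0.17 for PAX6 KO and 0.04 for PDX1 KO, beside 0.03, 0.00 and 0.02 over all genes. With 19 libraries 1 rose and 9 fell in ISL1 KO, 3 rose and 9 fell in PAX6 KO, and 5 rose and 10 fell in PDX1 KO, beside 28.5%, 28.8% and 33.3% of all genes called. RBP4 is itself 1 of the 5 delta cell markers used here and made up 244 and 324 CPM of their sums of 370 and 503 CPM in WT BFP, so that sum is no separate measure. Liver cells make TTR and RBP4, and the 6 liver markers summed to 10485 to 11521 CPM in WT BFP and 2730 to 6573 CPM over the knockout BFP libraries. The alpha marker sums differed as well, at 34338 to 48581 CPM in WT BFP and 195 to 233 CPM in ISL1 KO BFP. They were at 135 to 244 CPM in PAX6 KO BFP and 14045 to 18096 CPM in PDX1 KO BFP. The part of liver or alpha cells was not tested.

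Under the ISL1 vector, averaged over genotypes, 5 of 33 pathway genes rose and 2 fell, where 11.2% of all genes were called. LRAT stood at 131 and 130 CPM in WT BFP and 163 and 191 CPM in WT ISL1 OE. In ISL1 KO it was at 103 ± 11.1 CPM (SD, n = 3) under BFP and at 194, 191 and 148 CPM under the ISL1 vector. It stood at 322, 248 and 271 against 357, 301 and 426 CPM in PAX6 KO, and at 68.6, 66.3 and 77.2 against 254 and 101 CPM in PDX1 KO. It was above every BFP library of its genotype in 9 of 10 ISL1 OE libraries and rose by 0.73 ± 0.14 (adjusted p = 0.00251). RDH10 moved the other way. It was below every BFP library of its genotype in 10 of 10, for example at 88.1, 101 and 87.1 CPM in ISL1 KO BFP and 45.7, 52.2 and 43.1 CPM in ISL1 KO ISL1 OE, and its log2 fold change was -0.86 ± 0.16 (adjusted p = 0.00251). RBP4 (1.94), TTR (1.06), BCO1 (0.63), which cleaves carotene, and DHRS3 (0.56) rose and RETSAT, a retinol saturase, fell (-0.55). Within single genotypes no pathway gene was called in WT, ISL1 KO or PAX6 KO with all libraries. Of the 33 tested, 2, 6 and 7 had an unadjusted p under 0.05, as did 844, 1758 and 2379 of all 22184 genes. In PDX1 KO, where 14.4% of all genes were called, 7 rose (RBP2 5.06, RBP4 4.44, RBP7 2.59, TTR 2.44, RDH5 1.56, DHRS3 1.54 and LRAT 1.33) and 2 fell (RDH10 -1.33 and RETSAT -0.91). Several of these values rested on replicate 4, the library that stood apart: RBP4 was at 78.2 CPM in replicate 2 and 876 CPM in replicate 4, TTR at 2232 and 12296 CPM, RBP7 at 0.366 and 3.33 CPM and RBP2 at 0.318 and 4.66 CPM. With 19 libraries the values were 2.14 for RBP2, 1.86 for RBP4, 0.77 for TTR, 1.12 for RDH5, 1.10 for DHRS3, 1.87 for LRAT and -0.79 for RDH10, all still called, resting on 1 ISL1 OE library. RBP7 (0.30, adjusted p = 0.759) and RETSAT (-0.50, adjusted p = 0.117) lost their calls. Then 6 pathway genes rose and 1 fell, where 11.2% of all genes were called.

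A list of 20 genes known to respond to retinoic acid, 19 of them tested, went both ways in the knockouts. STRA8 did not pass the filter. The shares of all genes called in the knockouts are those given for the pathway list. In ISL1 KO 2 rose, among them the homeobox gene HOXA2 (1.11 ± 0.31, adjusted p = 0.0409), and 5 fell, RARRES3 (-2.46), HOXB2 (-2.32), the adhesion gene ICAM1 (-1.70), NR2F1 (-1.43) and MEIS1 (-1.12). In PAX6 KO 1 rose and 2 fell, RARRES3 (-2.58) and ICAM1 (-1.90). In PDX1 KO none rose and CDX1 (-3.88), RARRES3 (-3.25) and the transglutaminase TGM2 (-1.11) fell. The list's median was -0.31, 0.08 and -0.44 in ISL1 KO, PAX6 KO and PDX1 KO, beside 0.03, 0.00 and 0.02 over all genes. With 19 libraries 4 rose and 6 fell in ISL1 KO, 5 rose and 2 fell in PAX6 KO, and 1 rose and 7 fell in PDX1 KO, beside 28.5%, 28.8% and 33.3% of all genes called.

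With the ISL1 vector RARRES2, which encodes the secreted protein chemerin, rose in every genotype. It stood at 13.8 and 10.8 CPM in WT BFP and 73.4 and 91.7 CPM in WT ISL1 OE, at 29, 23 and 20.2 against 86.4, 87.4 and 76.3 CPM in ISL1 KO, at 27, 28.7 and 26.8 against 79.5, 65.3 and 217 CPM in PAX6 KO, and at 6.59, 8.56 and 6.6 against 55.2 and 62 CPM in PDX1 KO. No ISL1 OE library overlapped the BFP libraries of its genotype. The log2 fold change of RARRES2 was 2.74 ± 0.42 in WT (adjusted p = 0.0192), 1.79 ± 0.33 in ISL1 KO (adjusted p = 0.0193), 2.13 ± 0.33 in PAX6 KO (adjusted p = 0.0072) and 3.01 ± 0.37 in PDX1 KO (adjusted p = 0.000135). The homeobox gene MEIS2 was above every BFP library of its genotype in 10 of 10 ISL1 OE libraries and was called in ISL1 KO (0.94 ± 0.20, adjusted p = 0.048). In PDX1 KO HOXA2 (1.51), CDX1 (3.77) and RARRES3 (4.22) were also called, and with 19 libraries HOXA2 was (1.40) while CDX1 (2.40, adjusted p = 0.143) and RARRES3 (1.19, adjusted p = 0.0569) were not. Averaged over genotypes, where 11.2% of all genes were called, 7 of 19 responders rose, among them RARRES2 (2.42), LEFTY1 (1.34), RARRES3 (1.24), HOXA2 (0.94), MEIS2 (0.87) and NR2F2 (0.72), and RARRES1 fell (-0.89). With 19 libraries 6 responders rose and 1 fell, and 7 pathway genes rose and 5 fell, where 28% of all genes were called.

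Patterns alike across libraries were sought among 12857 genes, with Pearson's r of log2 CPM over the 21 libraries as a description. These libraries share groups, lanes and the 2 that stood apart. LRAT was the gene most like RARB (r = 0.92), followed by PITPNC1 and GGT7 (0.90 each). HOXA3 was most like CYP26B1 (r = 0.93), followed by LINC00472 and FBN3 (0.92 each). NCOA7 was most like ALDH1A3 (r = 0.93), with F11R at 0.90 and SH3RF1 at 0.88. ALDH1A1 was most like GUSB and ATP6AP2 (0.91 each) and the hormone gene SST (0.90), and CYP26A1 most like ZC3H12A (0.92), CTGF (0.90) and CYR61 (0.88). For RARA they were PPRC1 (0.97), GTPBP1 and PHRF1 (0.96 each), for RARG IL17RA (0.84), EPS8L2 (0.83) and EDNRA (0.82), and for ALDH1A2 SPARC (0.83), FUT8 (0.78) and CREB5 (0.77). CRABP1 was most like CSRP2 (0.92), EEF1A1 (0.91) and IFITM2 (0.90), and CRABP2 most like EMP2 and SFRP2 (0.93 each) and DCN (0.92). Among the members themselves the highest r were 0.77 for ALDH1A3 with CYP26A1, 0.76 for CRABP1 with CRABP2 and 0.75 for CYP26B1 with RARB.

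**Figure D5:**
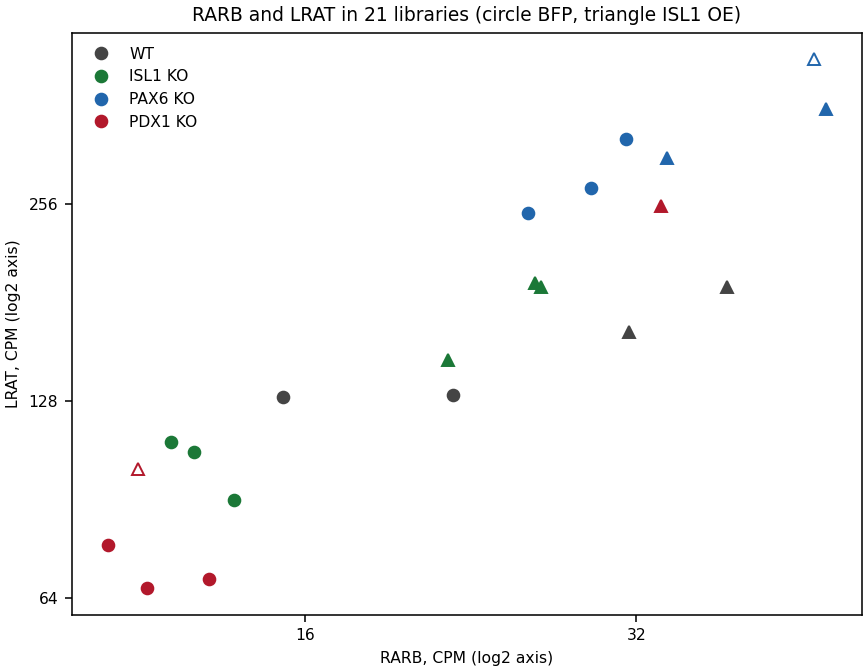
RARB against LRAT in each of the 21 libraries, both in CPM on log2 axes, with genotype by colour, circles for BFP and triangles for ISL1 OE. Libraries run from PDX1 KO BFP at the lower left to PAX6 KO ISL1 OE at the upper right, and open symbols are the 2 libraries that stood apart.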

How the data were processed

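Per the labels' protocols, Zymo Quick-RNA extracts were turned into libraries with SMART-Seq v4 and KAPA EvoPrep. That chemistry keeps no strand and no molecular identifiers. The submitters' processing notes name STAR, with the version field 1.6.1, and GRCh38. Which program counted the reads: not given in the sources used here. The authors deposited estimated counts per gene, estimated counts per transcript and TPM, by library and lane. The series describes biological replicates, and p-values measure the spread between them. A further 12 columns of 3 libraries whose names match no sample were not used.

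Estimated counts were summed over 4 lanes per library and rounded. Genes were tested in edgeR 4.0.16 (R 4.3.3) with TMM scaling (0.707 to 1.15), the filterByExpr filter (22184 genes), a mean per group for 8 groups, the quasi-likelihood F test and Benjamini-Hochberg adjustment over all genes. SEs are those of the log2 fold change. TPM was averaged over lanes. Within PAX6 KO, same-numbered libraries deviated together (r = 0.176, 0.382 and 0.346), so the numbers were taken to pair them. The main fit holds no block for that pairing, so its p-values leave it out. A block by replicate number within ISL1 KO and within PAX6 KO was an alternative, and the other genotypes enter that fit without a block. The members, lists and named genes were chosen with earlier results of these data known. Named were all members, called list genes (up to 6 per list and knockout, and all called for the vector), and the 3 genes most like each member with a mean log2 CPM of at least 2. A called list gene is not reported here by name. Gene positions are from GENCODE 29. Alternatives were other scalings, no filter, the block, the lane set (5 libraries on lanes 5 to 8, 16 on lanes 1 to 4), 19 libraries, only the groups compared, DESeq2 1.42.0 and each library left out. The lane set and the mean vector effect were added after the data were seen. Scripts were tested on simulated data.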

Additional observations from a re-analysis of the deposited data

Results flagged for a closer look

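With 19 libraries, the ALDH1A1 difference between ISL1 OE and BFP was larger in PDX1 KO than in WT, by 1.22 ± 0.28 on the log2 scale (edgeR, adjusted p = 0.0249, where 3.28% of all genes passed). It drew attention because the test of the difference between 2 genotypes passed. PDX1 KO ISL1 OE then holds 1 library, replicate 2 at 1104 CPM, which is assumed to vary like the other groups. With all 21 libraries the difference was 1.03 ± 0.46 (adjusted p = 0.272). No group held enough libraries to look for a single outlying library by its gap to the others.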

How the results depend on the processing

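The counts of members called moved with the processing more than their directions did. Against the counts in the report, the 19 libraries gave 5 for ISL1 KO against WT, 4 for PAX6 KO against WT, 5 for PDX1 KO against WT, 3 for ISL1 KO against PAX6 KO, 4 for ISL1 KO against PDX1 KO, 5 for PAX6 KO against PDX1 KO, and 1 and 2 for the vector in WT and ISL1 KO, and 1 for the vector in PDX1 KO minus WT. A fit of only the groups compared gave 4 for PAX6 KO, 5 for PDX1 KO, 2 for ISL1 KO against PAX6 KO, 3 for ISL1 KO against PDX1 KO, 3 for PAX6 KO against PDX1 KO, 3 for the vector in ISL1 KO and 0 in PDX1 KO. DESeq2 gave 2 for PAX6 KO, 4 for PDX1 KO, 2 for ISL1 KO against PAX6 KO and 5 for the vector in PDX1 KO. Library size without TMM gave 0 for PAX6 KO, 0 for PDX1 KO, 0 for ISL1 KO against PAX6 KO and 1 for the vector in PDX1 KO. No filter gave 0 for PDX1 KO and 1 for the vector in PDX1 KO. The lane set as a term gave 0 for PAX6 KO, 0 for ISL1 KO against PAX6 KO and 1 for the vector in PDX1 KO. Size factors of the RLE kind moved no count by over 1.5 times. By TPM in place of counts, the median share of ALDH1A1-201 was 98.8% (99.6% by counts) and that of CYP26A1-201 was 43.6% (60.1% by counts). The cause of these moves was not tested. Apart from the 19 libraries, the share of all genes called under the alternatives in this section is not given here. That holds for the replicate block and for each library left out as well, so these counts have no background beside them.

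Leaving out 1 library at a time gave 1 to 3 members for ISL1 KO against WT, 0 to 4 for PAX6 KO, 0 to 4 for PDX1 KO, 0 to 1 for ISL1 KO against PAX6 KO, 0 to 1 for ISL1 KO against PDX1 KO, 0 to 2 for PAX6 KO against PDX1 KO, 0 to 1 for the vector in ISL1 KO, 0 to 5 in PDX1 KO, 0 to 4 for PDX1 KO minus WT, 0 to 3 for PDX1 KO minus ISL1 KO and 2 to 5 for the mean over genotypes. The low of 1 for ISL1 KO came without WT BFP replicate 3, and the highs for the 2 differences of vector effects came without PDX1 KO ISL1 OE replicate 2. The direction turned for CYP26B1 under the vector in PDX1 KO, which was -0.22 without PDX1 KO ISL1 OE replicate 2 and 1.96 without replicate 4.

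With the replicate block, the members called were 2 for PAX6 KO against WT, 4 for PDX1 KO against WT, 0 for ISL1 KO against PAX6 KO and 1 (ALDH1A3) for ISL1 KO against PDX1 KO. The other 12 counts stayed within 1.5 times. In ISL1 KO same-numbered libraries had r of 0.17, 0.099 and 0.307, in WT the pair shared r of -0.031 and in PDX1 KO -0.222.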
